A study of Mus musculus with 2 samples.

Results

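The genes described here are those of glucose uptake and of the control points of glycolysis: the glucose transporter genes Slc2a1, Slc2a3 and Slc2a6, the hexokinase genes Hk1, Hk2 and Hk3, the phosphofructokinase genes Pfkl and Pfkp, the gene of their regulatory enzyme, Pfkfb3, and the lactate dehydrogenase gene Ldha. They were compared between sorted spleen dendritic cells (DCs) with and without CD8α, measured on 1 Affymetrix array per population. The members are the 22 probe sets annotated to 1 of these 10 genes alone, of 34958 single-gene probe sets and 45101 probe sets in the table. The 10 genes stand among 18194 genes with a single-gene probe set, and 1 further probe set, annotated to Hk1 together with ribosomal protein genes, was left out. The genes were chosen by their function with the log2 differences between these same 2 arrays known, so their values are a description and carry no test.

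Both populations came from C57BL/6 mice, of unstated age and number, that carried B16 melanoma cells secreting Flt3 ligand, the growth factor of DCs. The spleens were taken 10 to 12 days after the injection. The cells were enriched on magnetic columns and sorted as CD11c+ cells negative for CD3 and B220, and were then divided into CD8+ DCs and CD8- DCs. Neither population was stimulated, and both share the tumour and the excess of Flt3 ligand, so DCs of untreated mice were not measured. The labels do not say whether mice were pooled.

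Of the measured markers of the CD8+ subset, 8 of 9 favoured the CD8+ array by 2-fold or more (Cd8a 11.29 against 5.15 in log2 signal). Of those of the CD8- subset, 7 of 8 favoured the CD8- array by as much. All 8 genes shared by DCs, among them Itgax and Flt3, lay above the floor on both arrays. The floor is the lower limit used throughout for a measured value. It was set at the table's median log2 signal, 3.85, and 11404 genes reached it on at least 1 array. The markers did not split cleanly both ways. All 9 CD8+ markers also lay above the floor on the CD8- array, with a median of 7.22 there against 10.35 on the CD8+ array. Of the 8 CD8- markers, 3 lay above it on the CD8+ array. The part of this signal in the differences of the 10 genes was not tested.

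Glucose enters leukocytes through facilitative transporters of the Slc2a (GLUT) family and is trapped in the cell when hexokinase phosphorylates it. Phosphofructokinase then commits the sugar to glycolysis, and lactate dehydrogenase regenerates NAD+ at the end of the pathway by turning pyruvate into lactate. DCs are known to raise glucose uptake and glycolysis soon after they sense microbial products, and several of these enzymes exist as isozymes of separate genes that differ in regulation and in their place in the cell.

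The 10 genes did not all favour 1 population. Slc2a3 and Slc2a6 favoured CD8- DCs by 2-fold or more, Hk3 and Pfkp favoured CD8+ DCs by 2-fold or more, and the other 6 genes differed by less than that. All 10 genes reached the floor, as did all 22 probe sets. Over all measured genes, 3.55% favoured CD8+ DCs by 2-fold or more and 5.97% favoured CD8- DCs. At 4-fold, 1 of the 10 genes (Hk3) favoured CD8+ DCs and 2 (Slc2a3 and Slc2a6) favoured CD8- DCs, beside 0.859% and 2.1% of all measured genes. At 1.5-fold the counts were again 2 and 2, beside 8.49% and 11.5%. Hk1, higher in CD8- DCs, fell just short of 1.5-fold at 1.498-fold, and its second probe set was past it at 1.53-fold. Because the genes were picked with their differences known, nothing is read from their own share. The median difference of the 10 genes was -0.21 (log2, CD8+ minus CD8-), beside 0.03 over all measured genes. The median size of the difference, without its sign, was 0.48 for the 10 genes and 0.25 for all measured genes.

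**Figure D1:**
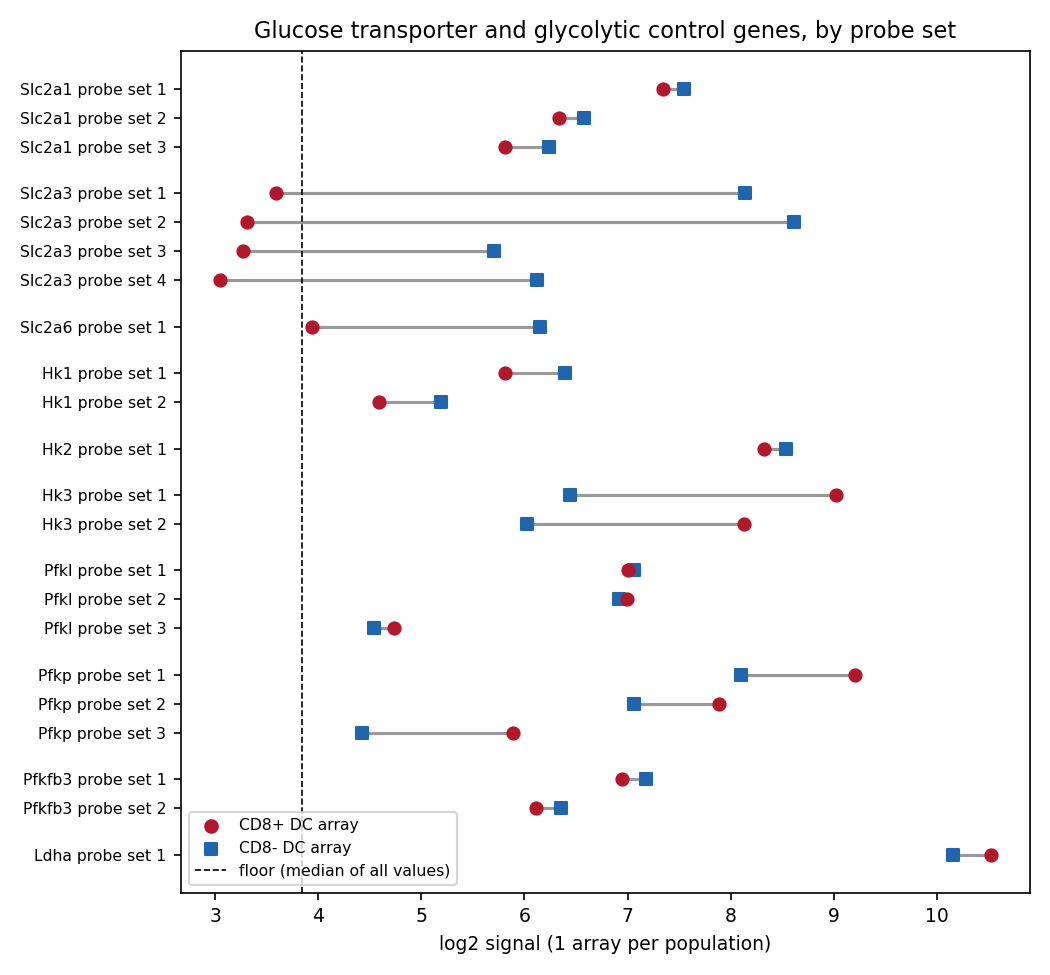
Log2 signal of each of the 22 probe sets on the CD8+ DC array (circles) and the CD8- DC array (squares), with the floor of 3.85 as a dashed line. There is 1 array per population and so no error bar. All 4 Slc2a3 probe sets lie below the floor on the CD8+ array only, and both Hk3 probe sets and all 3 Pfkp probe sets lie higher on the CD8+ array.

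Among the transporters, Slc2a3 showed the largest difference of the 10 genes. Slc2a3 encodes GLUT3, a transporter of high glucose affinity. Its probe set with the highest mean signal read 3.31 in CD8+ DCs and 8.62 in CD8- DCs (log2 signal). The other 3 probe sets read 3.59 and 8.14, 3.27 and 5.71, and 3.04 and 6.12, in the same order. Every Slc2a3 probe set was thus below the floor on the CD8+ array and well above it on the CD8- array. With the CD8+ signal under the floor, each fold is a lower bound, computed with the floor in its place. The brightest probe set gave at least 27.3-fold higher signal in CD8- DCs, and the others gave at least 19.6-fold, at least 3.63-fold and at least 4.84-fold. The probe sets thus shared the direction but not the size, with log2 differences from -5.31 to -2.44. The 2 with the largest differences carry the name endings _s_at and _x_at, which mark probes that can also bind other transcripts. Without them the difference of Slc2a3 was -3.08.

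Slc2a6, which encodes GLUT6, a transporter of intracellular membranes, had 1 probe set. It read 3.94 on the CD8+ array and 6.15 on the CD8- array, which is 4.62-fold higher in CD8- DCs. The CD8+ value lay just above the floor, where background compresses differences. Slc2a1, which encodes GLUT1, the basal transporter of many cells, read 7.35 and 7.54 by its brightest probe set. Its other probe sets read 6.33 and 6.57, and 5.81 and 6.24. All 3 were slightly higher in CD8- DCs, with log2 differences of -0.43 to -0.20. The pooled SD of the log2 difference between probe sets of 1 gene was 0.30 over 5183 genes, and that of the Slc2a1 probe sets alone was 0.12. Neither SD holds the variation between mice, sorts or arrays. With 1 array per population, a difference of that size cannot be resolved. The gap between the differences of Slc2a6 and Slc2a1 was -2.01 on the log2 scale.

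The hexokinases differed in direction. Hk3 encodes a hexokinase found mainly in myeloid cells, which lacks the mitochondrial anchor of the other isozymes described here. Its brighter probe set read 9.02 on the CD8+ array and 6.44 on the CD8- array, which is 5.98-fold higher in CD8+ DCs. The second probe set read 8.13 and 6.03, a 4.28-fold difference. Both lay far above the floor on both arrays, so neither fold is a bound. The brighter one has the ending _x_at, and without it the log2 difference of Hk3 was 2.10 in place of 2.58.

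Hk1 and Hk2 encode the isozymes that bind the outer mitochondrial membrane, the first expressed widely and the other inducible in many tissues. Hk2 read 8.32 in CD8+ DCs and 8.53 in CD8- DCs on its only probe set. Hk1 read 5.81 and 6.40, and 4.58 and 5.19 on its second probe set. Both Hk1 probe sets were higher in CD8- DCs, with log2 differences of -0.58 and -0.61, the larger being 1.53-fold. The difference of Hk3 exceeded that of Hk2 by 2.79 and that of Hk1 by 3.16 on the log2 scale.

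Of the phosphofructokinases, the platelet-type gene Pfkp was higher in CD8+ DCs and the liver-type gene Pfkl was nearly equal. Pfkp read 9.20 on the CD8+ array and 8.10 on the CD8- array by its brightest probe set, or 2.15-fold. Its other probe sets read 7.88 and 7.06, and 5.88 and 4.42. The direction was the same in all 3, but 1 of them, at 1.77-fold, did not reach 2-fold, and the third gave 2.76-fold. The 3 probe sets of Pfkl read 7.01 and 7.06, 6.99 and 6.92, and 4.73 and 4.54. Their differences lay between -0.05 and 0.19, with no common sign, and Pfkl was the only 1 of the 7 genes with several probe sets whose probe sets disagreed in sign. The difference of Pfkp exceeded that of Pfkl by 1.15 on the log2 scale.

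Pfkfb3 encodes a bifunctional enzyme whose kinase activity makes the fructose bisphosphate that activates phosphofructokinase. It read 6.94 in CD8+ DCs and 7.18 in CD8- DCs, and 6.11 and 6.35 on its second probe set. Both probe sets gave a log2 difference close to -0.24. A difference of this size cannot be resolved with 1 array per population. Ldha, which encodes the muscle-type subunit of lactate dehydrogenase, read 10.53 and 10.16 on its only probe set, 1.29-fold higher in CD8+ DCs. Neither gene approached 2-fold in either direction.

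**Figure D2:**
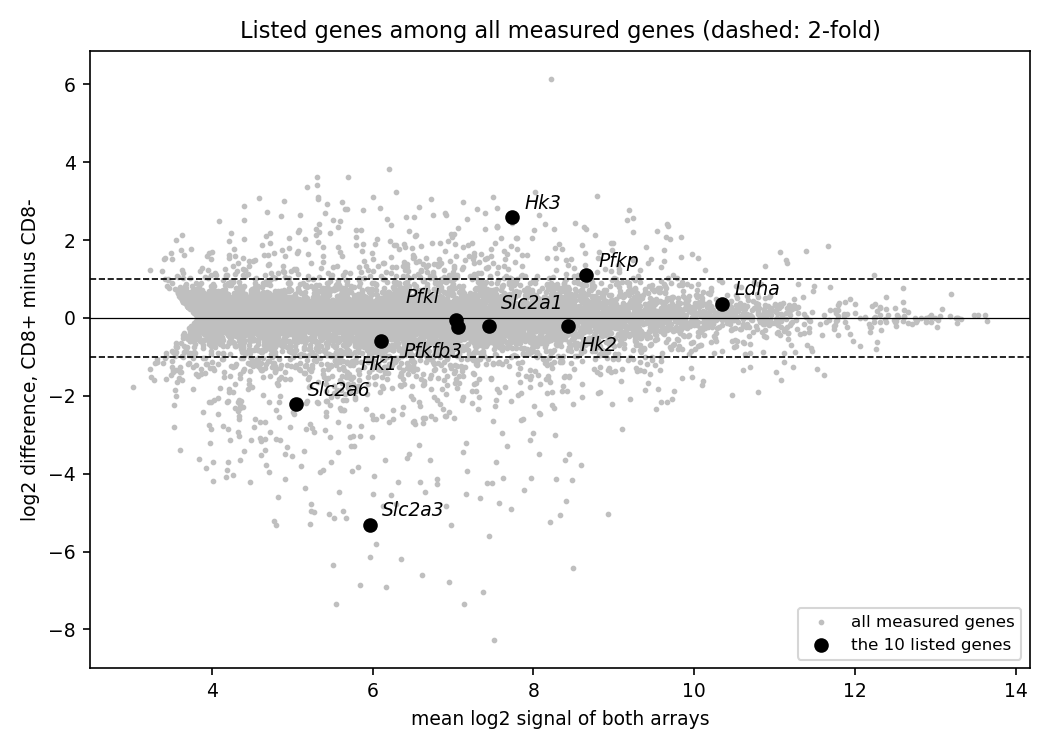
Log2 difference (CD8+ minus CD8-) against the mean log2 signal of both arrays for the 11404 measured genes (grey) and the 10 listed genes (black), each by its probe set with the highest mean. Dashed lines mark 2-fold. Slc2a3 at -5.31 and Slc2a6 at -2.21 lie below the lower line, Hk3 at 2.58 and Pfkp at 1.10 above the upper line, and the other 6 genes between -0.58 and 0.37.

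The bases in front of the start of the genes past 2-fold, and of Ldha as a textbook target of the hypoxia-inducible factor, are shown here so that the motifs found in them can be read beside the values. RefSeq promoter sequences of the GRCm38.p6 build matched 9 of the 10 genes, all but Slc2a3, in 12 windows, since some genes have 2 starts. Each window holds the 250 bases before the annotated start, read 5′ to 3′ on the strand of the gene. Capitals mark matches, on either strand, to ACGTG (core of the hypoxia response element), CACGTG (E-box, which contains the former), GGAAGT (core of ETS factor sites) and GGGCGG (GC box). The windows lie at chr13:55021386-55021635 (minus strand) for Hk3, chr13:6648772-6649021 (minus strand) for Pfkp, chr2:27027999-27028248 (minus strand) for Slc2a6 and chr7:46845554-46845803 (plus strand) for Ldha.
Hk3 promoter: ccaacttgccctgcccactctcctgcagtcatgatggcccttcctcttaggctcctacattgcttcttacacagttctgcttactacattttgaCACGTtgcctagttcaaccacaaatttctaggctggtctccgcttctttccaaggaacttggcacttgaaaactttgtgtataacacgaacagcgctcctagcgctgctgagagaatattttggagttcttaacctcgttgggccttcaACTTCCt
Pfkp promoter: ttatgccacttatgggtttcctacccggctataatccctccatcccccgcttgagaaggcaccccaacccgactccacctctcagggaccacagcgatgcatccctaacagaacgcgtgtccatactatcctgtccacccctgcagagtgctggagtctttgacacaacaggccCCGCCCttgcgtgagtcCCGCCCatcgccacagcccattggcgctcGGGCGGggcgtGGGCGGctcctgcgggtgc
Slc2a6 promoter: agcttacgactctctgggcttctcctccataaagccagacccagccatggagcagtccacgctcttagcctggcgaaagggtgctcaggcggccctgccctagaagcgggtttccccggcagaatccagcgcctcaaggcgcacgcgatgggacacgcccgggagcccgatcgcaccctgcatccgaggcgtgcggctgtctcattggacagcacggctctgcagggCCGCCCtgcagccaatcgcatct
Ldha promoter: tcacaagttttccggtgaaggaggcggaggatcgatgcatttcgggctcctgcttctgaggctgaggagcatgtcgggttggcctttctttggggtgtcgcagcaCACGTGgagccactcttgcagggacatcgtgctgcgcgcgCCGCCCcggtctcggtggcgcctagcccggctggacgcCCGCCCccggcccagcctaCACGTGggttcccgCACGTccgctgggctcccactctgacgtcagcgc

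The Hk3 window held 1 ETS core, which began 7 bases before the start, and 1 hypoxia core, and it had no GC box. The Pfkp window held 4 GC boxes and the Slc2a6 window 1, and neither held a hypoxia core. The Ldha window shown held 5 hypoxia cores, 4 of them the strands of 2 E-boxes, and 2 GC boxes, while the window of the other Ldha start held none of the 4 motifs. Across the 12 windows of the 9 genes, ACGTG was in 6 windows, against 16.6% of all promoter windows of this length. GGGCGG was in 7, against 32.7%. CACGTG was in 2, against 6.02%, and GGAAGT in 2, against 19.7%. The windows had a median GC content of 62.8%, against 52.4% over all promoters. A match is a stretch of letters and not a measured binding site.

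The other genes of glucose use were set beside the 10, in 9 lists. Of 111 measured genes of these lists, each counted once, 2 favoured CD8+ DCs by 2-fold or more and 9 favoured CD8- DCs, or 1.80% and 8.11%, beside the 3.55% and 5.97% of all measured genes. Their median difference was 0.09. None of the 5 measured members among the other hexose transporters reached 2-fold. The largest difference was that of Slc2a4, the insulin-responsive transporter gene, at 4.37 in CD8+ and 4.10 in CD8- DCs.

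Among the other isoforms of the control enzymes, 1 of 8 measured genes reached 2-fold. Pfkfb4, a bifunctional isoform related to Pfkfb3, was 5.61-fold higher in CD8- DCs (4.75 against 7.24), while its relative Pfkfb3 differed by 1.18-fold. The muscle-type phosphofructokinase gene Pfkm read 4.86 and 4.69, and the heart-type lactate dehydrogenase gene Ldhb 5.87 and 5.67.

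Among the other steps of glycolysis, 1 of 11 measured genes reached 2-fold, 7 favoured CD8+ DCs and 4 favoured CD8- DCs by any amount, and the median difference was 0.39. Of all measured genes, 52.6% were higher in CD8+ DCs by any amount and 44.8% in CD8- DCs. Eno3, the muscle-type enolase gene, was 5.08-fold higher in CD8- DCs (6.13 against 8.48). Of the genes under 2-fold, chosen after their values were seen, the phosphoglycerate kinase gene Pgk1 read 10.39 in CD8+ and 9.67 in CD8- DCs, with 3 probe sets between 0.70 and 0.75. The aldolase gene Aldoa read 9.42 and 8.84, with 5 probe sets between 0.48 and 0.70. Gapdh, whose enzyme carries out the oxidation step, read 11.49 and 11.64, and the pyruvate kinase gene Pkm 8.93 and 9.03.

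**Figure D3:**
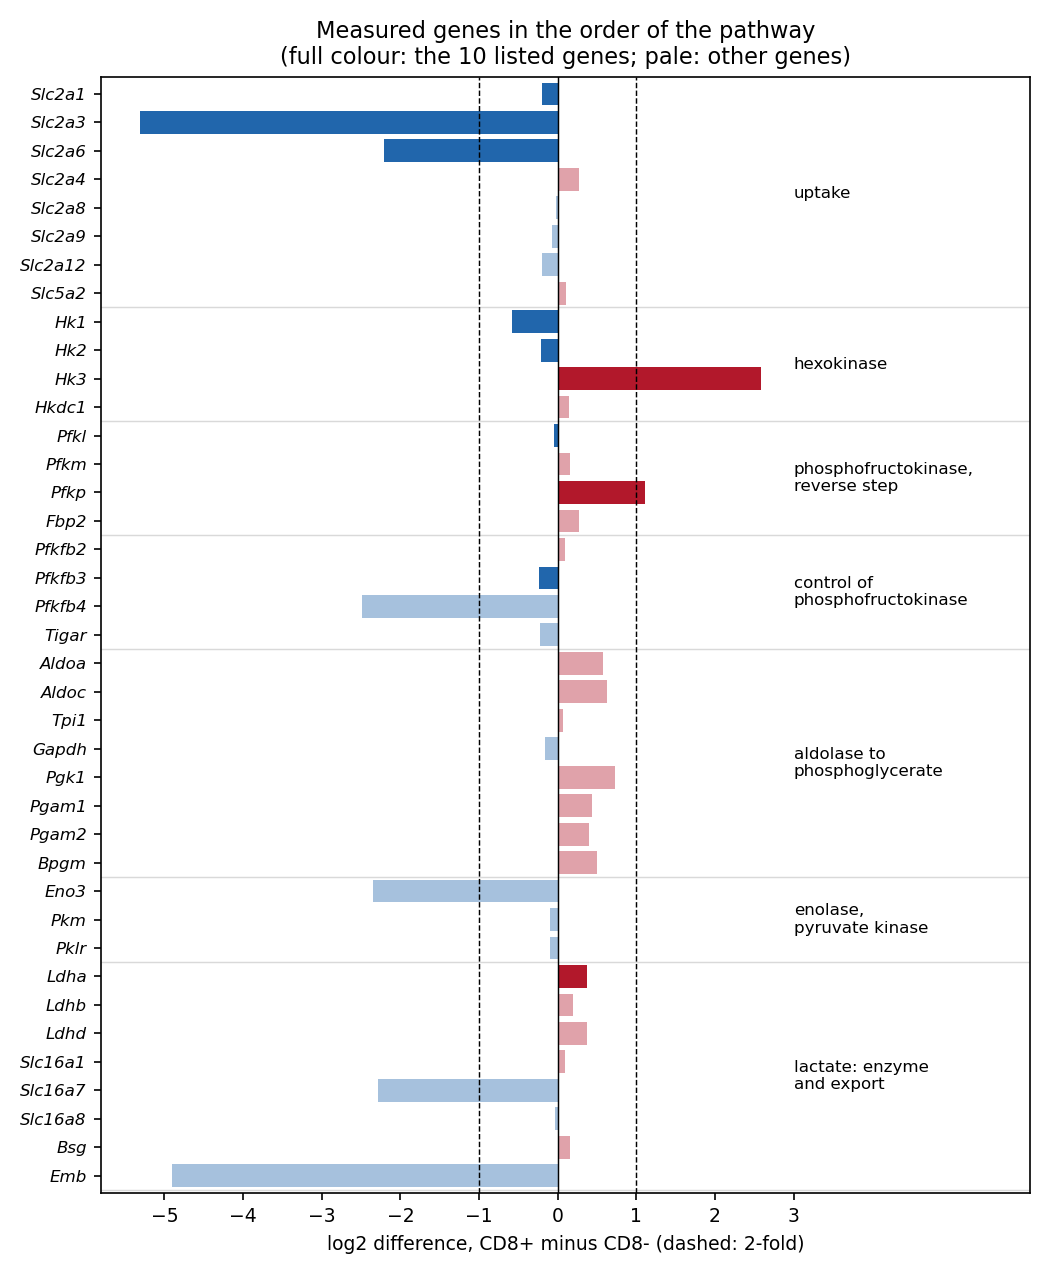
Log2 difference (CD8+ minus CD8-) of measured genes from glucose uptake to lactate export, with the 10 listed genes in full colour and other genes pale; bars start at 0 and dashed lines mark 2-fold. Slc2a3, Slc2a6, Pfkfb4, Eno3, Slc16a7 and Emb extend past 2-fold to the CD8- side and Hk3 and Pfkp to the CD8+ side; the bars of Slc2a3 and Slc16a7 rest on a CD8+ value below the floor.

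In the list of lactate export and pyruvate use, 2 of 15 measured genes reached 2-fold, both higher in CD8- DCs. Emb, which encodes embigin, a partner protein of monocarboxylate transporters, was 30.0-fold higher in CD8- DCs (5.27 against 10.18), with 2 measured probe sets at -5.23 and -4.91. Slc16a7, which encodes a monocarboxylate transporter of high affinity, read 3.24 on the CD8+ array and 5.53 on the CD8- array, at least 3.22-fold higher on the latter. The more common transporter gene Slc16a1 read 5.29 and 5.20, and Bsg, which encodes the partner protein basigin, read 8.88 and 8.72. The pyruvate dehydrogenase kinase gene Pdk1, which diverts pyruvate from the mitochondrion, read 6.64 and 6.31.

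None of the 7 measured pentose phosphate genes reached 2-fold, and 6 of them were higher in CD8+ DCs by any amount, as were 52.6% of all measured genes. H6pd, the hexose phosphate dehydrogenase gene of the endoplasmic reticulum, differed most, at 6.01 in CD8+ and 5.12 in CD8- DCs. Of 15 measured genes of glycogen and hexose phosphate branches, 2 reached 2-fold, both higher in CD8- DCs. Pygl, the liver-type glycogen phosphorylase gene, read 3.16 on the CD8+ array and 6.66 on the CD8- array, at least 7.03-fold higher on the latter. The glycogen branching enzyme gene Gbe1 had a log2 difference of -1.02 (3.25 against 4.27), but against the floor it was at least 1.35-fold higher.

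Among regulators of these genes, 1 of 20 measured genes reached 2-fold in each direction. Mycl, which encodes the transcription factor L-Myc, read 9.17 on the CD8+ array and 7.37 on the CD8- array, 3.48-fold higher on the former (3 probe sets between 1.27 and 1.80). Txnip, which encodes a protein that restrains glucose uptake, was 2.13-fold higher in CD8- DCs (8.94 against 10.02, both probe sets past 2-fold). Hif1a, the hypoxia-inducible factor gene, read 9.26 and 9.32 and Myc 7.16 and 7.32. Of 15 other measured genes known to respond to hypoxia, 2 favoured CD8- DCs by 2-fold or more and 1 favoured CD8+ DCs. Ddit4, which encodes an inhibitor of mTOR signalling, read 5.67 on the CD8+ array and 10.09 on the CD8- array, a 21.3-fold difference. The other gene was Pfkfb4, named above. Plin2, which encodes a coat protein of lipid droplets, was 3.37-fold higher in CD8+ DCs (10.51 against 8.75). Of 16 measured genes of the tricarboxylic acid cycle, Mdh2, the mitochondrial malate dehydrogenase gene, was the 1 past 2-fold. It read 10.86 on the CD8+ array and 12.18 on the CD8- array, 2.50-fold higher on the latter. The list median was 0.00. Dlst was under 2-fold by its probe set with the highest mean (-0.34), but its 4 measured probe sets ran from -1.14 to 0.05.

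**Figure D4:**
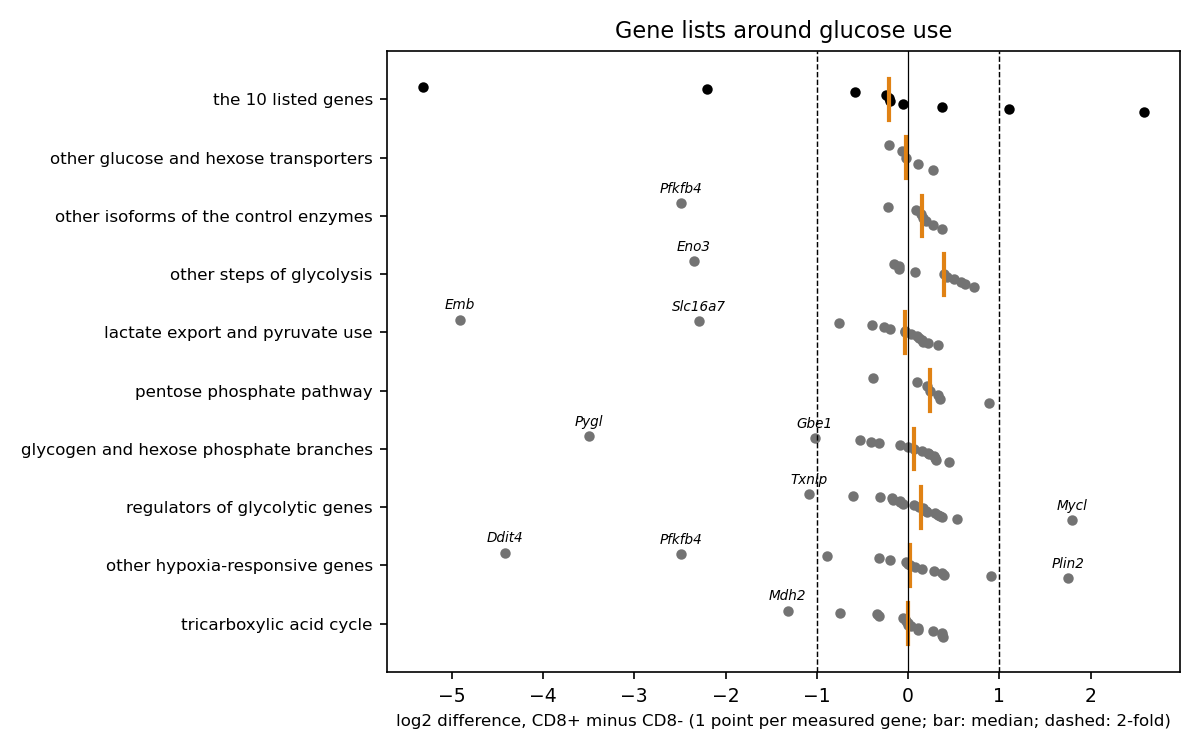
Log2 difference (CD8+ minus CD8-) of each measured gene in the 10 listed genes and in 9 lists around glucose use, with the list median as an orange bar and 2-fold as dashed lines. Most genes lie inside the 2-fold lines, and genes past it, which are named outside the top row, are mostly on the CD8- side.

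The pattern over 2 arrays was compared with that of all other measured genes by the distance in log2 signal on both arrays. The 3 genes nearest to Slc2a3 were St8sia6 (3.14 and 8.95), Tlr1 (3.71 and 8.54) and Tent5a (3.10 and 8.23), at distances of 0.38 to 0.44. The 3 nearest to Hk3 were Laptm4b (8.95 and 6.51), Sult1a1 (8.74 and 6.36) and Dbn1 (8.72 and 6.38), at distances of 0.10 to 0.30. With 2 arrays such a likeness rests on 2 numbers and on the brightness of each probe set.

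Markers of other cells that express these genes were measured on the same arrays. In sorted bulk RNA, fewer cells of a type and less RNA per cell cannot be told apart. Of the 9 neutrophil markers on the array, a cell type rich in Hk3 and Slc2a3 RNA, 2 reached the floor on either array, and S100a8 and S100a9 were below it on both. The 2 were Ngp (4.45 and 3.58), above the floor on the CD8+ array only, and Csf3r (3.72 and 4.37), above it on the CD8- array only. Summed over the list, the log2 signal was 6.56 on the CD8+ array and 6.44 on the CD8- array. Each such sum adds the linear signals of all list genes on the array, those below the floor included. It holds background and depends on the number of genes, so sums of different lists cannot be compared. Of the 9 measured monocyte or macrophage markers, 4 favoured CD8- DCs by 2-fold or more (Csf1r, Ccr2, Adgre1 and C1qa) and 1 favoured CD8+ DCs (Cd14), with summed signals of 11.57 in CD8+ and 12.34 in CD8- DCs. Several of these are also expressed by CD8- DCs, and their part in the differences of Slc2a3, Slc2a6 and Hk3 was not tested. The counts rest on the probe set with the highest mean of each gene. The 2 measured probe sets of Fcgr1 had log2 differences from -1.65 to 0.10. Those of Vcam1, 3 in number, ran from 0.42 to 2.49. Among markers of red cells, Hba-a1 and Alas2 were below the floor on both arrays. The transferrin receptor gene Tfrc, a marker shared with dividing cells, read 6.30 and 8.34, so that the summed signal of the red cell markers was 7.13 and 8.54. The other 2 red cell markers that reached the floor on either array went the other way, Epor at 4.66 and 4.22 and Klf1 at 3.96 and 3.38. Of the 6 platelet markers, Pf4 and Ppbp were below the floor on both arrays. The other 4, Itga2b (5.59 and 5.46), Gp9 (4.97 and 4.58), Treml1 and Gp1bb, reached it and were higher on the CD8+ array by 0.13 to 0.39 on the log2 scale. Of the 7 melanoma markers, Dct, Tyr, Tyrp1 and Mlana were below the floor on both arrays, and Pmel (4.40 and 4.30), Mitf (4.69 and 5.08) and Sox10 (5.21 and 4.85) lay above it on both. The summed signals in CD8+ and CD8- DCs were 7.13 and 6.92 for platelets, 6.82 and 6.77 for melanoma, 6.94 and 7.63 for B cells, 6.47 and 6.79 for T cells, 5.98 and 5.83 for NK cells and 9.79 and 9.77 for plasmacytoid DCs. The plasmacytoid DC list held 2 genes past 2-fold in opposite directions, Tcf4 at 5.47 and 7.55 and Ccr9 at 8.03 and 5.94. Of the 7 B cell markers on the array, 3 reached the floor on either array: Cd79b read 3.28 and 6.59, Ms4a1 5.74 and 4.99, and Blk 4.30 and 4.60. The part of these markers in the differences of the 10 genes was not tested.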

How the data were processed

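The 2 columns of deposited values are log2 signals, made by the authors with RMA, per the submitters' processing notes. That method subtracts background, forces arrays to 1 distribution by quantiles and joins the probes of a set by median polish. No version of it is known here, nor which arrays were normalised as 1 batch. A shift shared by most transcripts would therefore not be visible. Probe sets were named through the supplied platform annotation, with symbols updated by gene identifier to the RefSeq table of GRCm38.p6 (34754 of 34958 matched). A gene was represented by its probe set with the highest mean, and was measured where its higher value reached the floor of 3.85, the median of the table. Differences are CD8+ minus CD8- in log2, described with a 2-fold threshold. Below the floor, folds are lower bounds. With 1 array per population no test was made, and the number of arrays limits the precision. The genes and lists were chosen with earlier results of these data known. All 10 genes are named; in each list around glucose use the genes past 2-fold are (at most 6), or the largest difference where none was. For Slc2a3 and Hk3, the 3 genes nearest on the plane of both signals are also named. Any other gene was picked with its values in view. The alternatives tried were centring, a lowess trend (span 0.3), filters, averaging of probe sets, leaving out _x_at and _s_at probe sets, raising values under the floor to it, and thresholds of 1.5-fold and 4-fold. Calculations used Python 3.11.15, numpy 2.4.6, pandas 2.3.3 and statsmodels 0.14.6, and were tested on simulated data.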

Additional observations from a re-analysis of the deposited data

How the results depend on the processing

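Under 7 alternatives of scaling, filter and probe set choice, each of the 4 genes past 2-fold stayed past it in its direction, and none of the other 6 reached it. Several of the alternatives could not change a given value. The filters leave every difference as it is, and raising values to the floor changed only Slc2a3. Slc2a6, Hk2 and Ldha have 1 probe set each, so averaging or leaving out probe sets could not change them. Pfkl changed sign when probe sets were averaged. Slc2a3 ranged from -5.34 to -3.08 and Hk3 from 2.10 to 2.59 (log2). The difference of Slc2a3 was -3.84 with its probe sets averaged and -4.77 with values under the floor raised to it. At a 4-fold threshold, 1 of the 10 genes was higher in CD8+ DCs, without Pfkp, and 2 in CD8- DCs. In the other lists, alternatives were added after the data were seen. At 1.5-fold, 6 of 111 measured genes favoured CD8+ DCs and 13 favoured CD8- DCs, beside 8.49% and 11.5% of all measured genes. At 4-fold the counts were 0 and 6, beside 0.859% and 2.1%. At 2-fold, the other settings gave 2 genes for CD8+ DCs and 7 to 10 for CD8- DCs, of 78 to 130 genes. The shares of all genes were then 2.26% to 4.45% and 3.8% to 7.37%. No paired analysis was possible because each population has 1 array. Leaving out a replicate was not possible for the same reason. No replicate spread, detection call or scanner background was used, so small differences such as those of Slc2a1, Hk2 and Pfkfb3 cannot be resolved.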
